A study of Mus musculus with 6 samples.

Results

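A set of 10 genes of the circadian clock were followed in the villus epithelium of the mouse duodenum: *Arntl*, *Clock*, *Npas2*, *Per1*, *Per2*, *Per3*, *Cry1*, *Cry2*, *Nr1d1* and *Dbp*. They were chosen by symbol, through the Ensembl ID of each row, and are 10 of the 20409 features of the count table. RNA had been sequenced after poly(A) selection from 6 mice, with 1 library per mouse, in 2 groups of 3. Wild-type (WT) mice were littermates without tamoxifen. Double mutant (DM) mice carried Smad4 fl/fl, Ctnnb1 exon3 fl/wt and Villin-CreERT2, so that tamoxifen removed SMAD4 and made beta-catenin stable (a gain of function, GOF), and they received 4 injections of 0.05 g/kg tamoxifen and were collected at day 7. The Villin promoter drives the recombinase in the whole intestinal epithelium. Each group held 1 male (mouse 1) and 2 females, on a background enriched for C57BL6. Ages are not given beyond age matching. Because WT mice were not injected, genotype and tamoxifen cannot be told apart in any comparison here. Mice were kept on a 12 h light and 12 h dark cycle. The study's methods place collection around midday, and the labels give no hour for any mouse, so values are given mouse by mouse.

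The clock of a mammalian cell is a loop of transcription factors. CLOCK, or its relative NPAS2, pairs with BMAL1 (the product of *Arntl*) on E-boxes and switches on the *Per* and *Cry* genes, whose proteins return to the nucleus and block that pair. The same pair drives *Nr1d1*, whose product REV-ERBα represses *Arntl* through REV-ERB/ROR elements, and *Dbp*, an activator that acts on D-boxes and carries the rhythm to output genes. *Arntl* therefore peaks at a different time of day from *Dbp*, *Nr1d1* and the *Per* genes. Cells of the gut epithelium have such a clock, and meals as well as light set its phase.

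The promoters below are shown because they hold the letters these factors read. RefSeq windows (GRCm38.p6) of 250 bases before to 50 bases after a gene start were found for 9 of the 10 genes, in 13 windows. *Per2* has no entry. The E-box was searched as CACGTG, an E-box variant as CACGTT, the D-box as TTATGTAA and the REV-ERB/ROR core as TAGGTCA, each on both strands. CACGTG is its own reverse complement, and none of these motifs overlapped another. The lines give the 250 bases before the start, 5′ to 3′ on the gene's strand, with the motif in capitals. Each was found at a single place in mm9, the build of the counts: *Cry1* at chr10:84647800-84648049 (minus strand), *Cry2* at chr2:92274227-92274476 (minus), *Nr1d1* at chr11:98636692-98636941 (minus), *Per1* at chr11:68912201-68912450 (plus) and *Per3* at chr4:150418775-150419024 (minus).
Cry1: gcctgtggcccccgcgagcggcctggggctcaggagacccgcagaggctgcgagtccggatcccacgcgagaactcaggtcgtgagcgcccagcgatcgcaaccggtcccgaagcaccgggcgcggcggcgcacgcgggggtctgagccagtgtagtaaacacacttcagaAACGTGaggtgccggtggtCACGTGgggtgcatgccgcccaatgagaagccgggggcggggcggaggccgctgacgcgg
Cry2: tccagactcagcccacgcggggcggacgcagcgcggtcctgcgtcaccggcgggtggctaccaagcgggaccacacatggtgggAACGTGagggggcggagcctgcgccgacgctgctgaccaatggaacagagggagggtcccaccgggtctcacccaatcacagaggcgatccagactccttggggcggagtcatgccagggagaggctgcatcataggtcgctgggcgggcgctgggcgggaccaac
Nr1d1: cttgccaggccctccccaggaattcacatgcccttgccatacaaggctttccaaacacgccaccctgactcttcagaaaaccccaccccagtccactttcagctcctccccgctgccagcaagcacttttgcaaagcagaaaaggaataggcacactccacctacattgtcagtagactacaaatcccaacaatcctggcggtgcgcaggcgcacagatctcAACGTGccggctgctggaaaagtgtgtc
Per1: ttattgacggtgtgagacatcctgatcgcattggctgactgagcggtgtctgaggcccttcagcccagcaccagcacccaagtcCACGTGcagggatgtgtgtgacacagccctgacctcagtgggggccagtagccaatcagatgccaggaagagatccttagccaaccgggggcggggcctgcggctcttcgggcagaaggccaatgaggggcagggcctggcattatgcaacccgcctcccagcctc
Per3: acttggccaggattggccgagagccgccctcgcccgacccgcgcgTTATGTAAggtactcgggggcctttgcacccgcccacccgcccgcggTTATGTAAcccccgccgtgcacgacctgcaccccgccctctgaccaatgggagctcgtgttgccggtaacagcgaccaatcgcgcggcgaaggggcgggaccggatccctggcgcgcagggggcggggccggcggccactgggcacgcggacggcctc
In *Cry1* the capitals mark the E-box at -60 and the variant, read as AACGTG from the other strand, at -79. The variant also stood at -166 in *Cry2* and at -28 in *Nr1d1*, both again as AACGTG. *Per1* held CACGTG at -166, and *Per3* held the D-box at -205 and at -158. Of 32851 RefSeq windows of the same length, 7.15% held CACGTG, 4.68% the variant, 0.938% the D-box and 2.61% the REV-ERB/ROR core. The core occurred once in the 13 windows, in the second *Arntl* window, just after the start. The 27 bases around it, at chr7:120351045-120351071 on the plus strand of mm9, begin at position 21 of the transcribed part, with the core in capitals.
Arntl: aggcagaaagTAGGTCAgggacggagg
Of the 13 windows, 2 held CACGTG, 3 the variant, 1 the D-box and 1 the REV-ERB/ROR core. None of these motifs was found in the windows of *Dbp*, *Npas2* and *Clock*, the second *Per1* window or the first *Arntl* window. A match of letters is a description of the window and not a measured binding site.

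Library totals ran from 19678507 to 26337318 counts, and 3 counts, the limit that a count of 0 allows, came to between 0.114 and 0.152 CPM (counts scaled to the library total). That floor covers counting error only. *Smad4*, the deleted gene, had 120, 180 and 144 CPM in WT and 26.0, 36.8 and 32.1 CPM in DM mice 1 to 3 (log2 fold change -2.23, SE 0.19, adjusted p = 0.000145). Summed enterocyte markers (10 genes, led by *Anpep*) reached 43790 to 51820 CPM in WT and 30930 to 35390 CPM in DM villi, with 6 lower and 1 higher. Crypt stem markers (8 genes, led by *Olfm4*) summed to 40.2 to 131 CPM and 219 to 305 CPM, with 5 higher. Goblet markers (7 genes, led by *Fcgbp*) summed to 122 CPM in WT mouse 1 against 11480 and 10830 CPM in the other WT mice and 4392 to 4853 CPM in DM, with 1 higher. Leukocyte markers (9 genes, 5 tested, 2 lower) summed to 42.4 to 79.5 and 30.2 to 43.7 CPM, and stromal markers (9 genes, 7 found, 1 tested and not called) to 0.253 to 0.870 and 0.948 to 4.92 CPM. The B cell gene *Cd79a* was at 0 in the WT libraries. Fewer cells of a type and less RNA per cell cannot be told apart in such bulk samples, and the part of these shifts in the clock values was not tested.

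None of the 10 genes was at 0 in any library. Levels between genes are compared as CPM per kb of exon. In WT villi *Nr1d1* stood highest at 87.1 ± 5.21 CPM per kb (SD, n = 3), followed by *Dbp* at 18.4 ± 4.95, *Clock* at 9.64 ± 1.13 and *Npas2* at 8.18 ± 2.14 CPM per kb. *Cry1* (6.70 ± 0.92), *Per2* (5.50 ± 2.73), *Arntl* (4.53 ± 1.77), *Cry2* (2.98 ± 0.13), *Per1* (2.40 ± 1.15) and *Per3* (1.76 ± 0.64 CPM per kb) came after. *Nr1d1* and *Dbp* were each clear of the next gene in every WT mouse, while every neighbouring pair from *Clock* down overlapped. In DM villi *Nr1d1* was again highest (39.0 ± 4.77 CPM per kb), before *Dbp* (13.4 ± 6.88), *Clock* (6.71 ± 1.77) and *Arntl* (5.68 ± 1.97 CPM per kb). Then came *Npas2* (4.14 ± 1.28), *Per2* (3.93 ± 1.17), *Cry1* (2.98 ± 0.46), *Per1* (2.03 ± 1.28), *Per3* (1.43 ± 0.59) and *Cry2* (1.33 ± 0.17 CPM per kb), and only *Nr1d1* was clear of its neighbour.

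Between the groups, the repressor genes *Nr1d1*, *Cry1* and *Cry2* fell in DM villi, to 44.8%, 44.5% and 44.8% of their WT level, and the activator gene *Npas2* fell to 50.6%. No clock gene of the 10 was called higher. *Clock*, *Arntl*, the 3 *Per* genes and *Dbp* did not pass the test. By edgeR's quasi-likelihood test with Benjamini-Hochberg adjustment over 13346 genes, 4 of the 10 were lower at adjusted p under 0.05, where 36.8% of all tested genes were called, 17.0% lower and 19.7% higher. At an unadjusted p under 0.05 edgeR gave 5 lower and 0 higher, and DESeq2 and limma-voom, at adjusted p under 0.05, also gave 5 and 0. The same 4 genes had groups that did not overlap, all lower in DM, where 52.4% of all tested genes had such groups, 24.2% lower and 28.1% higher. The median log2 fold change of the 10 was -0.50, against 0.02 for all tested genes, and 9 of the 10 values were below 0. The median was -0.36 without WT mouse 2 and -0.89 without DM mouse 3.

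**Figure D1:**
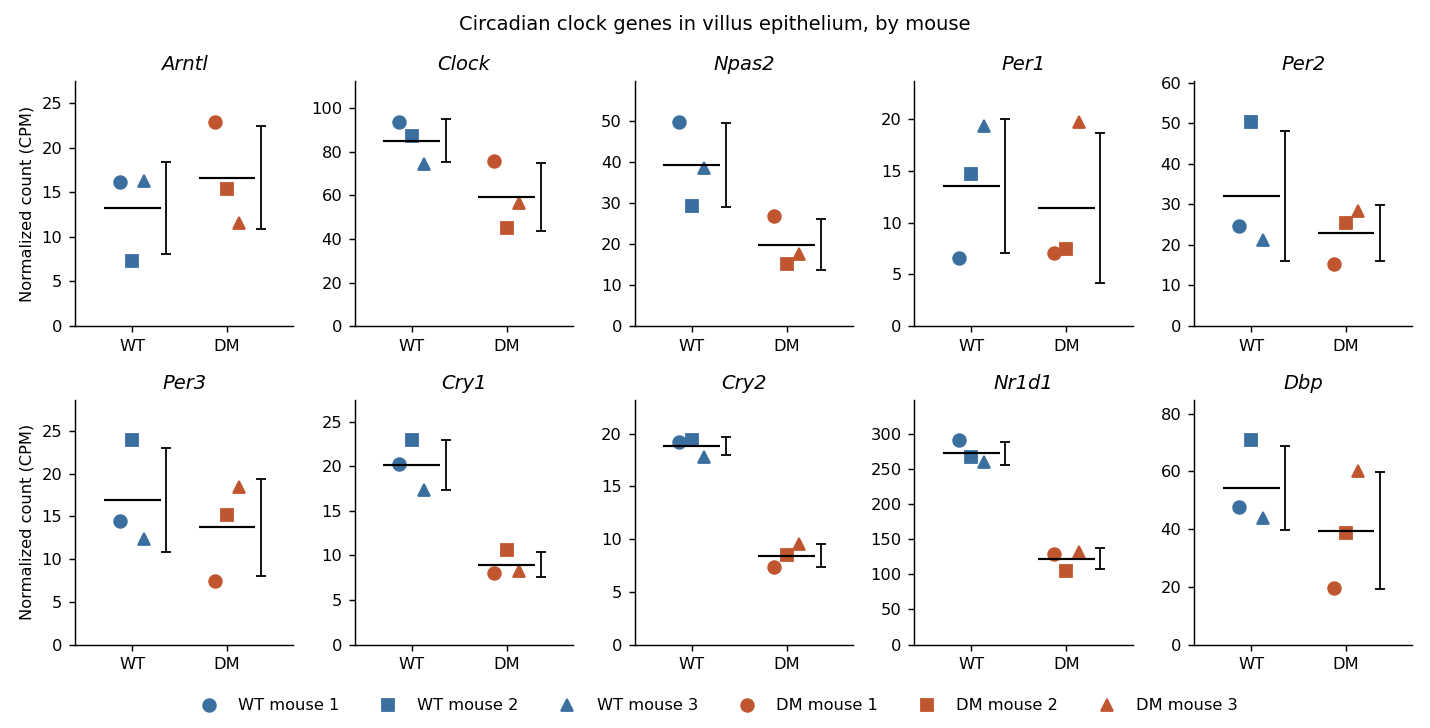
Normalized count (CPM, linear axis from 0) of each clock gene in the 3 wild-type (WT, blue) and 3 double mutant (DM, red) mice, with a symbol for each mouse, the mean as a bar and the SD beside it. The groups are apart for *Npas2*, *Cry1*, *Cry2* and *Nr1d1* and overlap for the other 6 genes.

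Among the activators, *Npas2* (chromosome 1, 39250576 to 39420079 in mm9, plus strand) encodes the partner that can stand in for CLOCK. It had 49.8, 29.3 and 38.5 CPM in WT mice 1 to 3 and 26.8, 15.2 and 17.6 CPM in DM mice 1 to 3. The highest DM value, in the male, lay just under the lowest WT value. *Npas2* fell by 0.98 on the log2 scale (SE 0.26, adjusted p = 0.0192). The call was lost without DM mouse 2 (log2 fold change -0.83, adjusted p = 0.0653) and without DM mouse 3 (-0.90, adjusted p = 0.0702). Its annotation spans 2 pseudogenes within introns that share no exon with it and had 0 to 7 counts.

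*Clock* (chromosome 5, 76639992 to 76733817, minus strand), the other bHLH partner of BMAL1, had 93.8, 87.4 and 74.3 CPM in WT and 76.0, 45.0 and 56.7 CPM in DM mice. DM mouse 1 stood above WT mouse 3, so the groups overlapped. The log2 fold change was -0.52 (SE 0.19, adjusted p = 0.0606). This value lay close to the threshold and crossed it under 8 of the 15 alternatives, for example with DESeq2 (adjusted p = 0.0210) and with sex as a covariate (adjusted p = 0.0205). Library size alone moved it the other way, to -0.33 (adjusted p = 0.212). In both groups the male had the highest *Clock* and the highest *Npas2* value, with 1 male per group.

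*Arntl* (chromosome 7, 120350979 to 120457636, plus strand), which encodes BMAL1, had 16.2, 7.28 and 16.3 CPM in WT and 22.9, 15.4 and 11.6 CPM in DM mice. WT mouse 2 was far below the other WT mice, DM mouse 1 was the highest of all 6, and the groups overlapped. The log2 fold change was 0.32 (SE 0.36, adjusted p = 0.510), the only positive value among the 10. It was 0.03 without WT mouse 2 and without DM mouse 1, and up to 0.53 without DM mouse 3.

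The period genes encode the PER proteins of the repressor complex, and *Per1* and *Per2* also respond quickly to light and to hormones. *Per1* (chromosome 11, 68908719 to 68923462, plus strand) had 6.53, 14.7 and 19.3 CPM in WT and 7.08, 7.41 and 19.7 CPM in DM mice. Both groups ran over nearly the same range, and the log2 fold change was -0.24 (SE 0.54, adjusted p = 0.757). Its sign turned without WT mouse 3 (0.10) and without DM mouse 1 (0.01).

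*Per2* (chromosome 1, 93312561 to 93355907, minus strand) had 24.8, 50.4 and 21.1 CPM in WT and 15.2, 25.4 and 28.3 CPM in DM mice. WT mouse 2 held the highest value, far above the rest, and the other 5 mice were mixed. The log2 fold change was -0.48 (SE 0.38, adjusted p = 0.358), and was -0.004 without WT mouse 2 and -0.25 without DM mouse 1. *Per3* (chromosome 4, 150377761 to 150418774, minus strand) had 14.5, 23.9 and 12.4 CPM in WT and 7.46, 15.2 and 18.5 CPM in DM mice. WT mouse 2 was again highest, and the groups overlapped, with a log2 fold change of -0.30 (SE 0.37, adjusted p = 0.556). That sign too turned without WT mouse 2 (0.03) and without DM mouse 1 (0.00).

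The cryptochromes are the partners of PER in the repressor complex. *Cry1* (chromosome 10, 84594447 to 84647799, minus strand), whose promoter above holds both E-box forms, had 20.3, 22.9 and 17.4 CPM in WT and 8.07, 10.6 and 8.30 CPM in DM mice. Every DM mouse was well below every WT mouse. *Cry1* fell by 1.17 on the log2 scale (SE 0.18, adjusted p = 0.00155), to 44.5% of WT. *Cry2* (chromosome 2, 92243803 to 92274200, minus strand) had 19.2, 19.4 and 17.8 CPM in WT and 7.32, 8.48 and 9.48 CPM in DM mice. The WT mice were nearly equal and all DM mice lay below them. *Cry2* fell by 1.16 (SE 0.15, adjusted p = 0.000929), to 44.8%. An antisense gene, *D930015M05Rik*, shares 295 exonic bases with it and had 3 to 18 counts per mouse.

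*Nr1d1* (chromosome 11, 98629246 to 98636647, minus strand), the gene of the heme-binding repressor REV-ERBα, had 290.3, 266 and 259 CPM in WT and 129, 105 and 132 CPM in DM mice. The WT mice lay close together and so did the DM mice, with a wide gap between them. *Nr1d1* fell by 1.16 on the log2 scale (SE 0.12, adjusted p = 0.000356), to 44.8% of WT. Its exons share 263 bases with *Thra*, a thyroid hormone receptor gene on the other strand. The strand setting of the counting is not given in the sources used here, so reads of these bases cannot be assigned to either gene. *Thra* had 119, 116 and 110 CPM in WT and 73.5, 73.5 and 82.8 CPM in DM mice and fell by 0.59 (SE 0.11, adjusted p = 0.00342), a smaller change than that of *Nr1d1*, with the difference between the genes not tested. *Nr1d1*, *Cry1* and *Cry2* kept their calls in each of the 15 alternatives, including every left-out mouse, with adjusted p up to 0.00240, 0.00996 and 0.00627.

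*Dbp* (chromosome 7, 52960458 to 52965525, plus strand), the PAR bZIP output gene, had 47.7, 70.8 and 43.8 CPM in WT and 19.7, 38.5 and 60.2 CPM in DM mice. The DM values ran from the lowest of all 6 mice to the second highest. The log2 fold change was -0.45 (SE 0.41, adjusted p = 0.423). It was -0.12 without DM mouse 1, -0.22 without WT mouse 2 and -0.89 without DM mouse 3. *Dbp* shares 491 exonic bases with *Sphk2*, a sphingosine kinase gene on the other strand, which had 194, 167 and 190 CPM in WT and 119, 127 and 116 CPM in DM mice and fell by 0.61 (SE 0.11, adjusted p = 0.00305).

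**Figure D2:**
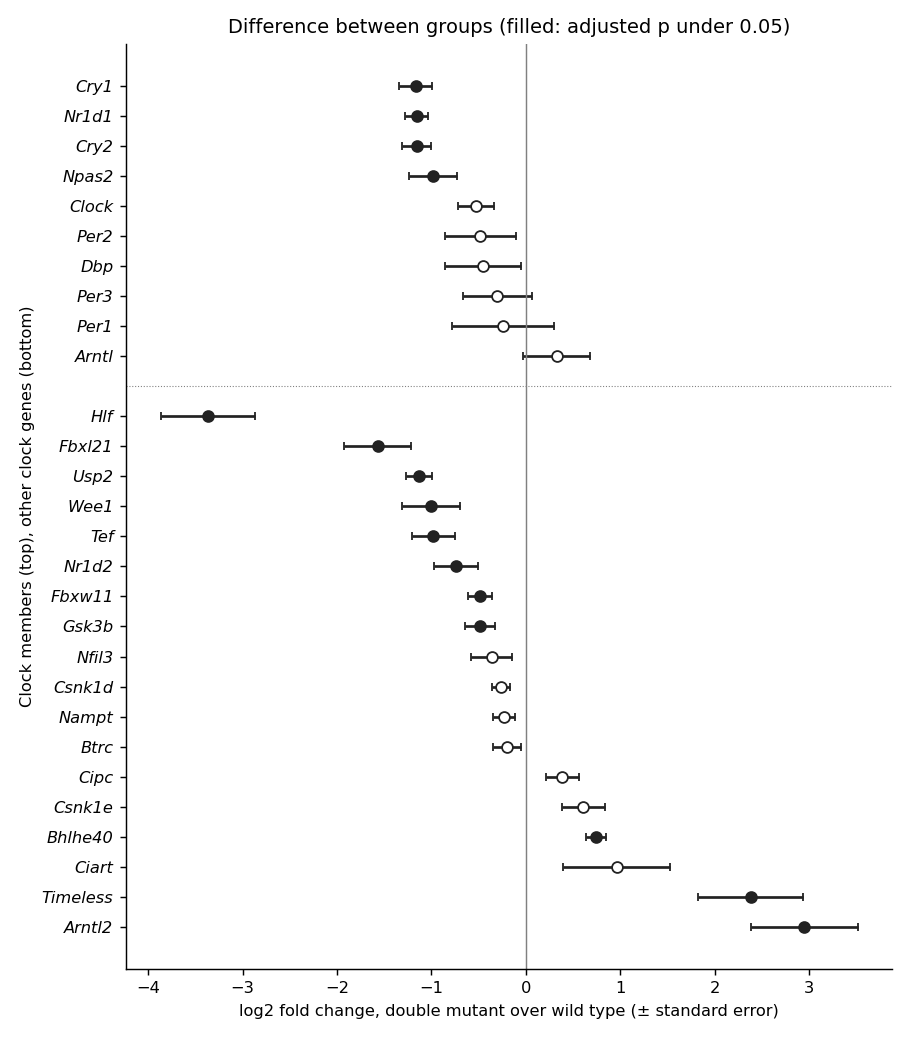
Log2 fold change (double mutant over wild type, linear axis) with its standard error for the 10 clock genes (top) and 18 of the 20 other clock genes tested (bottom; the remaining 2 are counted in the text but not shown), filled where the adjusted p was under 0.05. Cry1, Nr1d1, Cry2 and Npas2 lie between -1.17 and -0.98, and the other 6 of the 10 are open.

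Of the 6 genes that did not pass the test, 5 varied between mice of a group by more than the median gene, in WT and in DM. The SD of log2 CPM over the 3 WT mice was 0.81 for *Per1*, 0.67 for *Per2*, 0.66 for *Arntl* and 0.49 for *Per3*, where the median of all tested genes was 0.22. *Per1* differed 2.96-fold between its highest and lowest WT mouse and *Per2* 2.39-fold. In DM mice the SD was 0.83 for *Per1*, 0.81 for *Dbp* and 0.68 for *Per3*, at percentiles 97.0, 96.7 and 94.8 of all tested genes, whose median was 0.20. *Dbp* spanned 3.05-fold among DM mice and 1.62-fold among WT mice. *Cry2* and *Nr1d1* varied little in WT, with an SD of 0.07 and 0.09, at percentiles 8.80 and 14.1. In DM their SD was 0.19 and 0.18, at percentiles 46.5 and 45.7, near the middle of all tested genes. *Clock*, which was also not called, had an SD of 0.17 in WT and 0.38 in DM, and *Npas2*, which was called, 0.38 and 0.42. The median SD of the 10 was 0.38 in WT and 0.45 in DM mice.

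**Figure D3:**
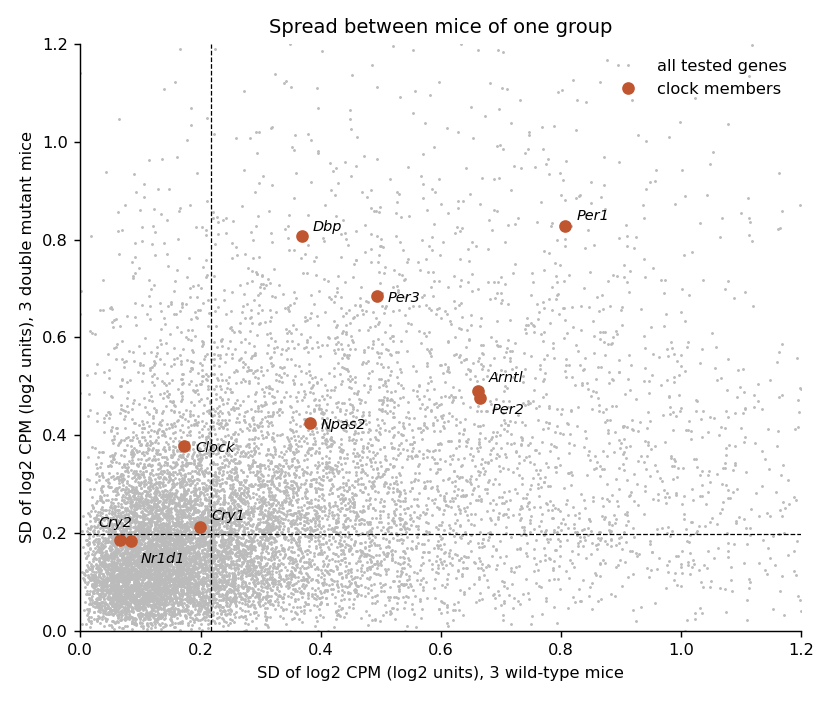
SD of log2 CPM over the 3 wild-type mice (x axis) and over the 3 double mutant mice (y axis), both in log2 units, for all tested genes (grey) and the clock genes (red), with dashed lines at the medians of all tested genes and 572 genes beyond the axes. Per1, Per2, Per3, Arntl and Dbp lie above both medians, and Cry2 and Nr1d1 below both.

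The mice also fell into an order that several of these genes shared, a pattern described after the values were seen. For *Dbp* the order from low to high was mouse 3, 1, 2 in WT and 1, 2, 3 in DM. *Per2*, *Per3* and *Cry2* had that same order in both groups, as did 1.54% of all tested genes (206 of 13346, *Dbp* and these genes included). *Arntl* had the reverse order in both groups, as did 1.56% (208 genes). No tested gene of the wider clock list given below had either order in both groups. Some steps in these orders were very small, such as that between WT mice 1 and 3 for *Arntl* and between WT mice 1 and 2 for *Cry2*. WT mouse 2, with the lowest *Arntl*, thus had the highest *Dbp*, *Per2* and *Per3*, and DM mouse 1, with the highest *Arntl*, had the lowest. *Per1* followed another order in WT, with mouse 1 lowest and mouse 3 highest. Mouse numbers carry no order of their own, and with the hour of collection not given per mouse, time of day and other differences between mice cannot be told apart here.

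**Figure D4:**
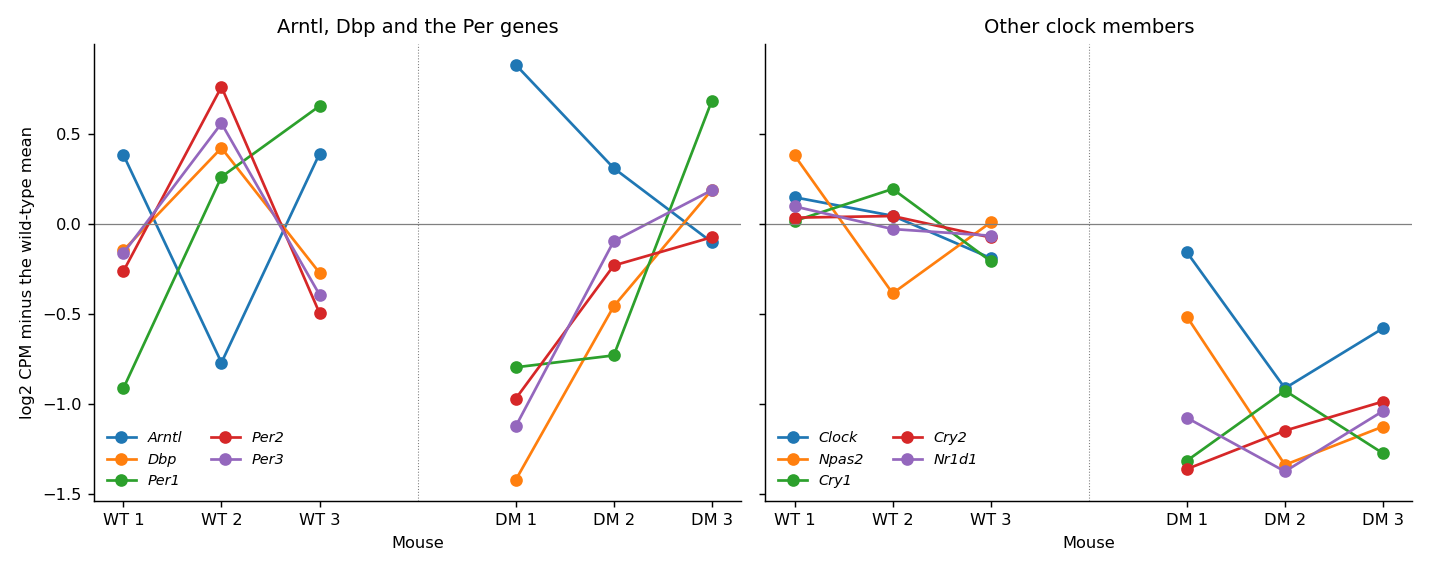
Log2 CPM of each clock gene minus its wild-type mean (log2 units) in the 6 mice, with *Arntl*, *Dbp* and the *Per* genes on the left and the other 5 on the right; lines only tie the points of a gene. Arntl is lowest and Dbp, Per2 and Per3 highest in WT 2, the reverse holds in DM 1, and Cry1, Cry2 and Nr1d1 are low in all 3 double mutant mice.

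Ratios within a library do not depend on its scaling. The log2 ratio of *Nr1d1* to *Arntl* was 4.17, 5.19 and 4.00 in WT mice 1 to 3 and 2.49, 2.77 and 3.51 in DM mice. The groups did not overlap, with means of 4.45 ± 0.65 and 2.93 ± 0.53 (SD, n = 3). The log2 ratio of *Dbp* to *Arntl* was 1.56, 3.28 and 1.43 in WT and -0.21, 1.32 and 2.38 in DM mice, and overlapped. DM mouse 3 stood between the WT mice, and DM mice 1 and 2 lay below all of them. *Per1*, *Per2* and *Per3* relative to *Arntl* overlapped between the groups as well, while *Cry1* to *Arntl* (0.32, 1.66 and 0.10 against -1.50, -0.54 and -0.48) and *Cry2* to *Arntl* (0.25, 1.41 and 0.13 against -1.65, -0.86 and -0.29) did not.

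A wider list of 23 other clock genes was read in the same test. Of these, 21 were found and 20 tested, *Rorb* and *Bhlhe41* were not analysed here, and *Rora*, with 2 to 13 counts, was too low to test. Lower in DM were 10, higher were 3 and 7 did not pass, with a median log2 fold change of -0.43. Of all tested genes, 17.0% were lower and 19.7% higher. The lower count was 5 without WT mouse 2, 5 without DM mouse 2, 6 without DM mouse 3 and 5 with library size alone, which gave 5 higher.

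Both PAR bZIP relatives of *Dbp* were lower. *Hlf*, a PAR bZIP factor, had 12.1, 7.07 and 3.74 CPM in WT and 1.03, 0.46 and 0.71 CPM in DM mice, without overlap. Its log2 fold change was -3.37 (SE 0.50, adjusted p = 0.00153). *Tef*, the other PAR bZIP factor, had 95.0, 134 and 97.5 CPM against 42.3, 49.4 and 73.9 CPM, also without overlap (-0.98, SE 0.23, adjusted p = 0.0114). *Nfil3*, a repressor at D-boxes, had 16.1, 10.3 and 11.6 CPM against 9.38, 11.8 and 8.30 CPM and overlapped (-0.36, adjusted p = 0.228).

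The paralog of *Nr1d1* was lower too. *Nr1d2*, which encodes REV-ERBβ, had 101, 117 and 82.0 CPM in WT and 53.7, 43.9 and 81.3 CPM in DM mice. DM mouse 3 almost reached WT mouse 3, and the log2 fold change was -0.74 (SE 0.23, adjusted p = 0.0377). *Arntl2*, the paralog of *Arntl*, rose from a very low level, with 2, 4 and 4 counts in WT and 22, 21 and 40 counts in DM mice. Its log2 fold change was 2.95 (SE 0.56, adjusted p = 0.00448).

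*Bhlhe40*, a repressor at E-boxes, had 82.4, 98.8 and 88.9 CPM in WT and 151, 149 and 152 CPM in DM mice. The DM mice were nearly equal and all above WT, with a log2 fold change of 0.74 (SE 0.11, adjusted p = 0.00128). *Timeless*, known in mammals chiefly for its part in DNA replication, rose from 3, 15 and 12 counts to 60, 63 and 46 counts (2.38, SE 0.56, adjusted p = 0.0109). Among genes that act on the stability of clock proteins, the F-box gene *Fbxl21* (-1.57, adjusted p = 0.00904), the kinase gene *Gsk3b* (-0.49, adjusted p = 0.0408) and *Fbxw11*, a ligase subunit that acts on PER proteins (-0.49, adjusted p = 0.0178), were lower. So were the clock-driven genes *Usp2*, a deubiquitinase (89.9, 111 and 82.7 against 40.1, 44.8 and 44.2 CPM, -1.13, adjusted p = 0.000571), and *Wee1*, a cell cycle kinase (-1.01, adjusted p = 0.0311).

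Of 11 genes known to be rhythmic in the gut, 9 were lower and 0 higher at adjusted p under 0.05 (edgeR, with 0 higher also at an unadjusted p under 0.05 and 0 with DESeq2 or limma-voom), and their median log2 fold change was -1.13. That share, and those of the next lists, stand against 17.0% lower and 19.7% higher among all tested genes. The largest fall was in *Slc5a1*, the glucose transporter SGLT1 of the brush border, with 6793, 7473 and 5865 CPM in WT and 1583, 1465 and 1952 CPM in DM mice (-2.01, SE 0.16, adjusted p = 0.000114). Beside them, 6 of the 10 enterocyte markers were lower and 1 was higher, and the part of that in the rhythmic genes was not tested. Of 6 glucocorticoid-responsive genes, 5 were tested, 3 were lower and 1 higher. *Sgk1*, a kinase gene, had 91.4, 65.9 and 80.5 CPM in WT and 9.05, 7.09 and 21.6 CPM in DM mice (-2.66, SE 0.43, adjusted p = 0.00476). *Fkbp5*, a co-chaperone of the glucocorticoid receptor, had 3.66, 3.42 and 6.06 CPM against 9.90, 14.4 and 30.2 CPM (2.05, SE 0.44, adjusted p = 0.0102). Both were apart between the groups and moved in opposite directions. Of 6 immediate-early genes, 4 were lower.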

How the data were processed

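The deposited values are raw counts per gene in 6 libraries. Per the study's methods, the authors aligned reads to mm9 with HISAT2 and counted them with featureCounts; the strand setting is not given in the sources used here. Symbols, positions and exon lengths came from GENCODE vM1 (mm9), which held 20032 of the 20073 Ensembl IDs; 336 other features had no Ensembl ID. Promoters came from RefSeq (GRCm38.p6). Counts were tested with edgeR 4.0.16 in R 4.3.3 (quasi-likelihood, robust, filterByExpr, TMM, group only), with Benjamini-Hochberg adjustment over the 13346 genes kept and a threshold of 0.05. DESeq2 1.42.0 and limma 3.58.1 (voom) were alternatives, with other scalings and filters, a replicate block, sex, and each mouse left out. SDs came from log2 CPM, computed with 2 as prior count, and ratios from the counts with none. Library totals had medians of 20613988 (WT) and 19791156 (DM), and 3 counts was the floor. The fits were tested on simulated data.

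The members, gene lists and tests were chosen with earlier results of these data known. By rule, the text names all 10 genes, genes that overlap them, fixed paralogs and every called gene of the other clock list, and the largest rise and fall of the gut rhythmic and glucocorticoid lists; some called genes are counted but not reported here by name; marker lists (enterocyte, goblet, crypt stem, leukocyte, stroma) are given by sums. *Cd79a*, *Smad4*, and the 3 clock genes not analysed or too low to test, are named outside that rule, after their values were seen. Levels are TMM-normalized CPM unless named otherwise. The labels do not say more of the mice of a group than their sex. Each edgeR p-value sets the difference between the groups against a spread within groups. That spread was estimated over both groups, with 3 mice in each, and moderated across genes.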

Additional observations from a re-analysis of the deposited data

How the results depend on the processing

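Across 15 alternatives, clock genes lower in DM numbered 3 to 5 (4 as reported; 3 to 5 with a mouse left out), higher 0, and gut rhythmic genes lower 7 to 11. Library size alone shifted the median log2 fold change of all genes from 0.02 to 0.22 (the 10 clock genes to -0.31). It lowered the share of lower genes among called ones from 46.4% to 27.6%, with 1425 lower instead of 2274. Other clock genes higher (3 as reported) became 5 with library size alone, 1 with at least 10 counts in all libraries and 5 with females only. Those lower (10) became 5 with library size alone and 5 to 10 with a mouse left out. *Per1* turned positive without WT mouse 3 (0.102) and DM mouse 1 (0.013), within -0.893 to 0.102 over left-out mice, and *Per3* without WT mouse 2 (0.026) and DM mouse 1 (0.003), within -0.574 to 0.026. The cause was not tested. The median SD of the 10 stayed at 0.36 to 0.38 in WT and 0.45 in DM under both other scalings, chosen after seeing the data. Over all tested genes, values centred by group correlated at 0.02, -0.11 and 0.01 between mice with the same number. With 3 mice per group these values cannot show whether the numbers pair mice, and mouse 1 was the male in both groups. With a replicate block 5 clock genes were lower, *Clock* included (-0.55, adjusted p = 0.0488), 3 other clock genes were higher and 7 lower, and of all genes 2092 were higher and 1752 lower. *Rora*, *Arntl2* and *Timeless* had so few counts that depth limits their values. The same holds in DM mice 1 to 3 for *Hlf* (22, 10 and 15 counts) and *Fbxl21* (12, 17 and 17 counts).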

Other observations

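A sex-by-group term, added after seeing the data, gave no difference between the sexes past the threshold for any of the 10 clock genes. The lowest adjusted p was 0.407, for *Dbp* (interaction -1.06 on the log2 scale), with 1 male per group, so that a p above the threshold does not show that the sexes were alike.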
